A study of Mus musculus with 60 samples.

Results

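The cortex of BTBRT T(+) tf/J (BTBR in what follows) and I/LnJ, a pair of inbred mouse strains known to be born without a corpus callosum, was compared with the cortex of 28 other inbred strains. The strains were chosen by name, and they gave 4 of the 60 arrays in the set and 2 of the 30 strains. All mice were male, carried the label 10 to 11 weeks of age, and had been bought at 5 to 6 weeks. Each strain had 1 array from mice given fluoxetine, a blocker of serotonin reuptake, by mouth at 18 mg/kg per day for 21 days, and 1 array from mice given plain water (0 mg/kg). Every array carried cortical RNA pooled from 3 mice that shared strain and treatment. The other strains were P/J, PL/J, SM/J, SWR/J, SJL/J, FVB/NJ, RIIIS/J, NZW/LacJ, NZB/BlNJ, NOR/LtJ, NOD/LtJ, MRL/MpJ, MA/MyJ, LP/J, LG/J, DBA/2J, CE/J, CBA/J, C58/J, C57BR/cdJ, C57BLKS/J, C57BL/6J, C3H/HeJ, BUB/BnJ, BALB/cJ, AKR/J, A/J and 129S1/SvImJ.

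The corpus callosum is the main tract of myelinated axons between the cerebral hemispheres. Its axons come from callosal projection neurons, most of them in the upper cortical layers and some in the deep layers. They are steered to the midline by secreted cues such as netrins, slits, semaphorins and draxin, which are read by receptors such as Dcc, the Unc5 family, Robo proteins and neuropilins, and glial cells at the midline provide the path across. In BTBR mice a deletion in Draxin has been tied to the missing tract, and 129S1/SvImJ and BALB/cJ come from families known for incomplete callosal defects. Each acallosal strain is 1 inbred line that differs from the others at many loci, the callosum was not examined in these mice, and the cortex was taken in adulthood, long after the tract forms.

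Values are log2 of the deposited array intensities, and the strain was the unit: both arrays of a strain were averaged, which balances the treatment. A gene was taken as differing when limma gave a Benjamini-Hochberg adjusted p under 0.05 and both acallosal strains lay on the same side of the mean of the other 28. Array medians ran from 39.1 to 43.1 on the linear scale, and 11951 of 18193 genes were high enough to be tested. The p-values measure the spread between strains, not between mice. The order in which the arrays were deposited separated the strains: 13 strains in alphabetical order came first and 17, which included both acallosal strains, came later. Among the 28 other strains alone, limma gave 3848 genes (32.2% of those tested) an adjusted p under 0.05 between strains listed later and strains listed first, 2898 of them higher in the later strains. The first principal component of the strain means, which held 10.8% of the variance, was below 0 in all 13 first strains and above 0 in 15 of the 17 later strains. No source used here says what the order reflects. It was seen only after the data were examined, so results are given also with the order as a covariate and within the later strains alone, where the acallosal pair faces 15 others.

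**Figure D1:**
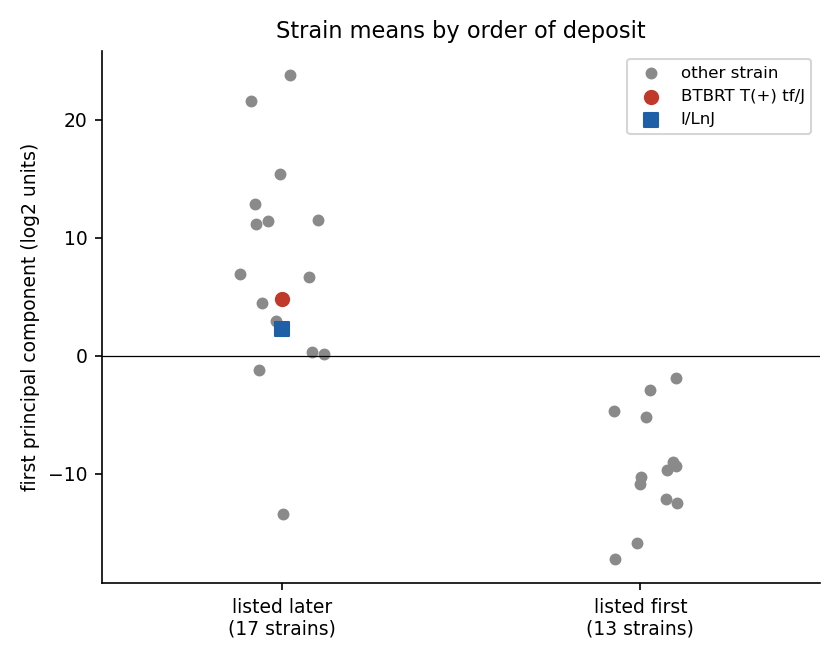
First principal component of the 30 strain means (log2 units, 11951 genes) for the 17 strains listed later and the 13 listed first. Each point is a strain. BTBRT T(+) tf/J and I/LnJ lie above 0 among the later strains, and all 13 strains listed first lie below 0.

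Few genes were shifted the same way in both acallosal strains. Of 11951 genes, 9 (0.0753%) differed from the other strains, 6 higher (0.0502%) and 3 lower (0.0251%). Without adjustment, 739 genes (6.18%) had a limma p under 0.05, 519 of them higher (4.34%) and 220 lower (1.84%). Both strain means lay outside the whole range of the other 28 for 51 genes (0.427%), 40 above it (0.335%) and 11 below it (0.092%), and 5 of the 9 differing genes were among these. Each strain by itself left that range more often, as the looser condition allows by construction. BTBR lay above it for 913 genes (7.64%) and below it for 282 (2.36%). I/LnJ lay above it for 403 (3.37%) and below it for 287 (2.4%). Whether any of these shares exceeds that of unrelated strains was not tested. Over all genes the acallosal mean was 0.04 higher on the log2 scale than the mean of the others (0.06 in BTBR, 0.02 in I/LnJ), and 7774 genes (65.0%) had a positive difference. Within the later strains this median was 0.02. Over all genes tested, the deviations of BTBR and I/LnJ from the mean of all strains had a Pearson correlation of -0.02. This describes genes, which are not independent replicates. Because that mean includes both acallosal strains, the sign of so small a value was not interpreted. By this correlation I/LnJ ranked 10 among the strains closest to BTBR, and BTBR ranked 10 among those closest to I/LnJ. The closest strain was LP/J for BTBR (0.19) and P/J for I/LnJ (0.19).

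**Figure D2:**
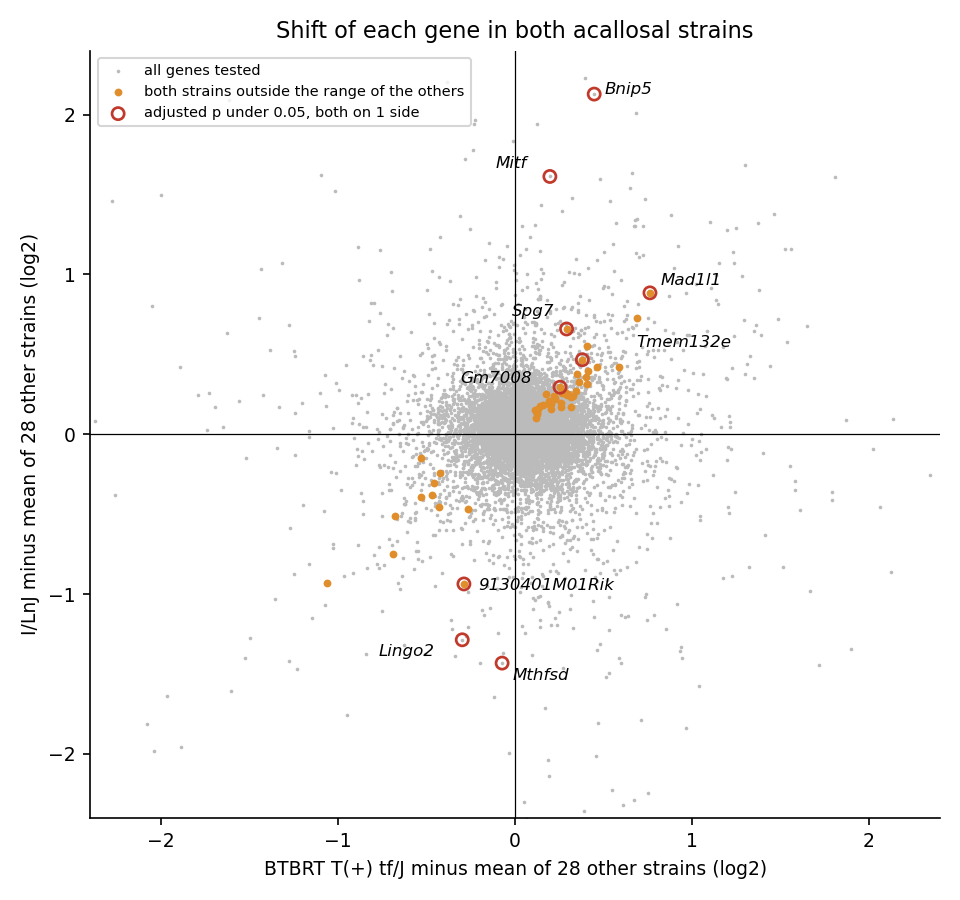
Difference of I/LnJ (vertical axis) and of BTBRT T(+) tf/J (horizontal axis) from the mean of the 28 other strains, in log2, for each gene tested. Orange points mark the 51 genes with both strains outside the range of the others, and circles the 9 genes past the threshold. The axes end at 2.4, and 46 genes lie outside them. Mthfsd and Mitf sit close to the vertical line where BTBR equals the other strains.

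9130401M01Rik, a protein-coding gene with no function assigned here, had the smallest p of all genes. Its log2 intensity was 10.16 in the fluoxetine array and 10.07 in the water array of BTBR, and 9.35 and 9.59 in those of I/LnJ, against a lowest, median and highest strain mean of 10.13, 10.41 and 10.57 in the other 28 strains. Both acallosal strain means lay below every other strain mean, I/LnJ by far the lower. The BTBR mean of 10.12 was nearly level with that of AKR/J. The fluoxetine array of BTBR was above both AKR/J arrays (10.14 and 10.13). The gene fell by 0.61 on the log2 scale (SE 0.0906, limma adjusted p = 0.00199), so that the linear intensity fell by 34.6%. With order of deposit as a covariate it still passed (difference -0.57, limma adjusted p = 0.00543). Within the later strains the difference was the same size, with an adjusted p of 0.367 by limma and an unadjusted p of 4.09e-05. Its neighbour Wdyhv1, an enzyme that removes the amide of N-terminal glutamine, was also below the range of all others in both strains. With only 2 tested genes between them on chromosome 15, these were the closest pair among the genes outside the range. Wdyhv1 was 8.61 and 8.88 in the fluoxetine and water arrays of BTBR and 8.49 and 8.60 in those of I/LnJ, against 8.77, 9.01 and 9.28 for the lowest, median and highest other strain (difference -0.37, limma adjusted p = 0.125). In the fit of all 60 arrays with strain as a replicate block it passed (limma adjusted p = 0.0114).

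Spg7, which encodes paraplegin, a protease of the mitochondrial inner membrane whose loss in humans causes a spastic paraplegia with degeneration of long axons, was higher in both strains. It was 8.79 and 8.75 in the fluoxetine and water arrays of BTBR and 9.01 and 9.27 in those of I/LnJ, against 8.26, 8.49 and 8.69 for the lowest, median and highest other strain. All 4 acallosal arrays lay above the highest other strain mean, that of LP/J. Single arrays did overlap: the fluoxetine array of LP/J, at 8.82, was above both BTBR arrays. Spg7 rose by 0.47 (SE 0.0877, limma adjusted p = 0.0251), or 1.39-fold. Strains listed later also had more Spg7 than strains listed first (difference 0.11, limma adjusted p = 0.0201), and with the order as a covariate the acallosal difference was 0.42 (adjusted p = 0.0544). With all its probe sets averaged, of which the second is at the floor, the difference was 0.24 (limma adjusted p = 0.241).

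Mad1l1, a protein of the mitotic spindle checkpoint, had log2 intensities of 5.71 and 5.94 in the fluoxetine and water arrays of BTBR and 6.21 and 5.67 in those of I/LnJ, against 4.69, 5.03 and 5.69 in the lowest, median and highest other strain. Both strain means were above every other strain mean, although the water array of I/LnJ was just under the highest of them, that of P/J. The water array of P/J, at 5.92, was above the fluoxetine array of BTBR and the water array of I/LnJ. The gene rose by 0.82 (SE 0.168, limma adjusted p = 0.0372), a 1.77-fold difference. Tmem132e, a transmembrane protein linked to hearing in humans, was 5.46 and 5.59 in the fluoxetine and water arrays of BTBR and 5.51 and 5.71 in those of I/LnJ, against 4.88, 5.13 and 5.50 in the others. It rose by 0.42 (SE 0.0812, limma adjusted p = 0.0251), with the highest other strain just under both means. The water array of that strain, P/J, was at 5.87, above all 4 acallosal arrays. Many arrays of the other strains held the same value, 5.13, which narrows the spread behind the test. Gm7008, a predicted gene, was 4.46 and 4.63 in the fluoxetine and water arrays of BTBR and 4.76 and 4.42 in those of I/LnJ, against 4.18, 4.28 and 4.52 in the others (rise of 0.27, SE 0.0555, limma adjusted p = 0.0372). Single arrays of both strains overlapped the others, and these intensities lie near the level of 4 needed for testing. For Gm7008 too, many arrays of the other strains held the same value, 4.28. With the order of deposit as a covariate, adjusted p-values from limma were 0.0841 for Mad1l1 and 0.0712 for Gm7008. With strain as a replicate block they were 0.0852 for Tmem132e and 0.142 for Gm7008, neither past the threshold.

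For the other 4 genes the call came mostly from I/LnJ, and they are named because they passed, after their values were seen. Lingo2, a neuronal leucine-rich repeat membrane protein of the family of Lingo1, a co-receptor of the Nogo receptor, was 8.56 and 8.78 in the fluoxetine and water arrays of BTBR and 7.30 and 8.08 in those of I/LnJ, against 8.67, 8.99 and 9.23 in the lowest, median and highest other strain. BTBR stood at the lower edge of the other strains and I/LnJ well below it. Lingo2 fell by 0.79 (SE 0.133, limma adjusted p = 0.00882), and it passed with the order of deposit as a covariate (adjusted p = 0.023 by limma). A second Lingo2 probe set put the strain mean of I/LnJ at 4.35 and of BTBR at 6.20, against a mean of 6.03 in the others, so there BTBR was not lower. Mthfsd, a protein with a methenyltetrahydrofolate synthetase domain, was 7.97 in each array of BTBR and 6.70 and 6.52 in the fluoxetine and water arrays of I/LnJ, against 7.79, 8.03 and 8.39 in the others (fall by 0.75, SE 0.158, limma adjusted p = 0.0439). BTBR ranked 20 of 30 from the highest.

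Bnip5 was 8.16 and 7.83 in the fluoxetine and water arrays of BTBR and 9.76 and 9.59 in those of I/LnJ, against 6.88, 7.55 and 8.03 in the lowest, median and highest other strain (rise of 1.29, SE 0.242, limma adjusted p = 0.0251). Mitf, a transcription factor of melanocytes and other cells, was 7.99 and 7.79 in the fluoxetine and water arrays of BTBR and 9.63 and 8.99 in those of I/LnJ, against 7.25, 7.65 and 8.05 in the others (rise of 0.91, SE 0.186, limma adjusted p = 0.0372). BTBR held rank 4 for Bnip5 and rank 8 for Mitf, inside the range of the other strains. With 1 acallosal strain left out, the spread came only from the other strains, and the lone strain was taken to vary like them. When BTBR was left out, I/LnJ alone kept 6 of the 9 genes past the threshold. When I/LnJ was left out, BTBR alone kept 0 of them, with limma adjusted p-values from 0.195 for Tmem132e to 0.973 for Mthfsd. Across the 15 other settings tried, 9130401M01Rik passed in 13, Lingo2 in 12, Bnip5 in 11, Spg7 and Mitf in 9 each and Mthfsd in 8. Mad1l1 passed in 7 and Tmem132e in 6 of 13 settings, and Gm7008 in 6 of 14. In the water arrays alone, 2 of the 9 passed limma's threshold, 9130401M01Rik and Mthfsd, and in the fluoxetine arrays alone 6 did. With the order of deposit as a covariate, 2 of the 9 passed (0.0167% of all genes), 9130401M01Rik and Lingo2. Within the later strains alone 0 genes passed limma's threshold, with 524 at an unadjusted p under 0.05.

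**Figure D3:**
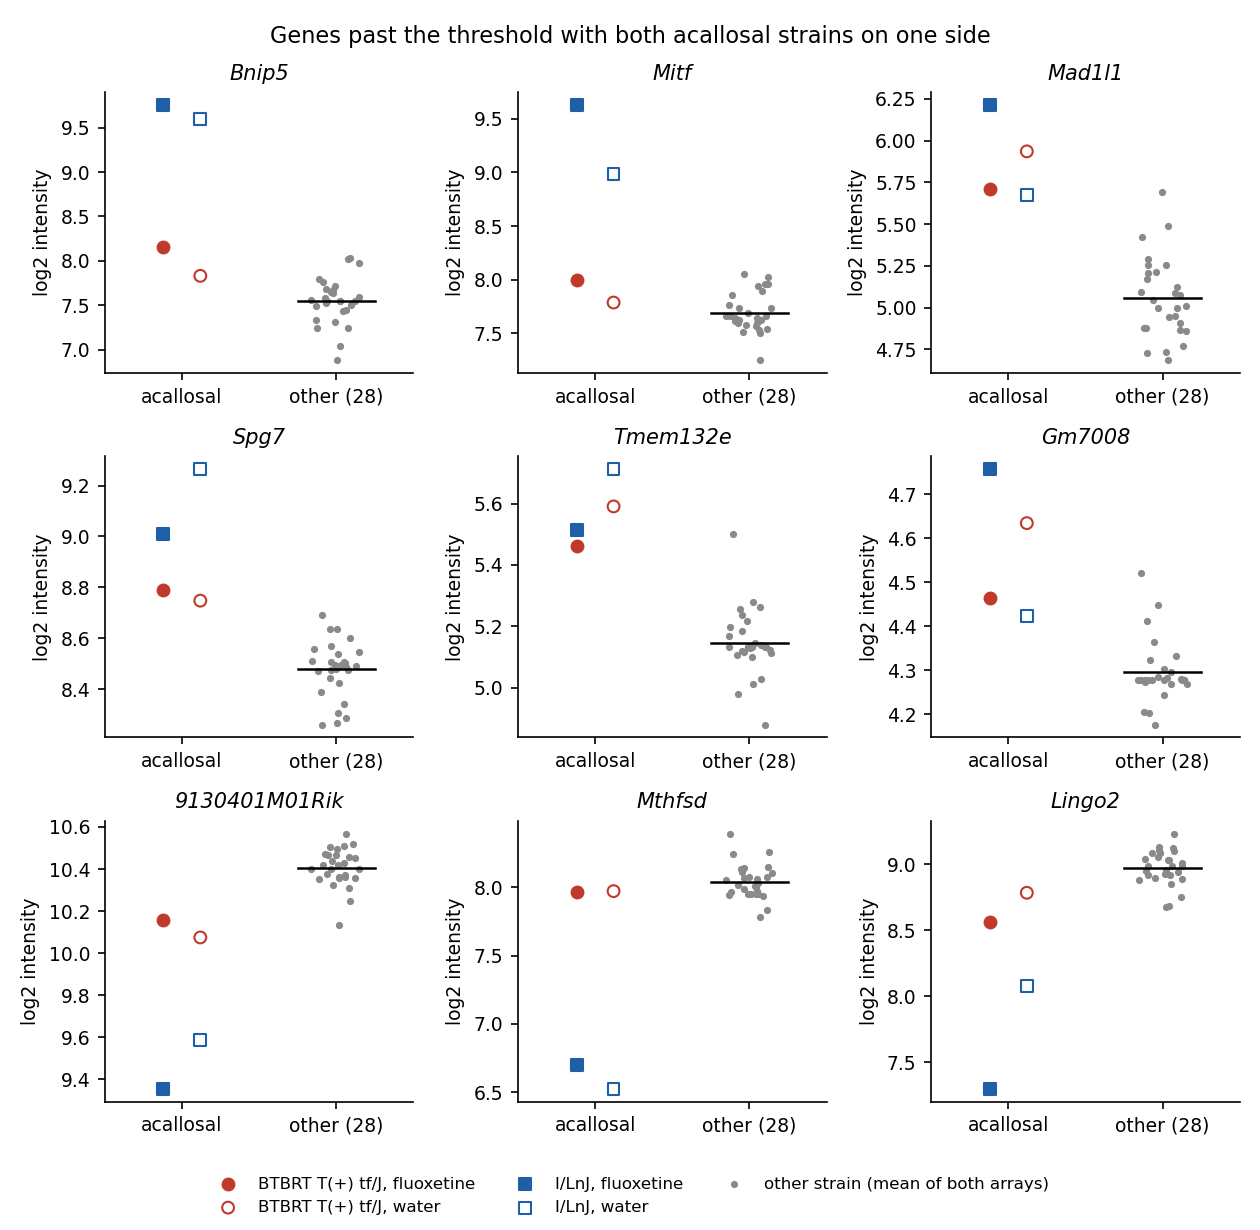
Log2 intensity of the 9 genes past the threshold. In each panel the acallosal strains are on the left (circles BTBRT T(+) tf/J, squares I/LnJ; filled fluoxetine, open water) and the 28 other strains on the right, 1 point per strain mean with a bar at their mean; the vertical axes do not start at 0. Mad1l1, Spg7, Tmem132e, Gm7008 and 9130401M01Rik have both strain means outside the range of the others.

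Another 3 genes passed limma's threshold (0.0251%) with the acallosal strains on opposite sides or at the mean, because I/LnJ alone stood apart. Spock2, a brain proteoglycan, was 12.54 and 12.45 in the fluoxetine and water arrays of BTBR and 6.81 and 6.41 in those of I/LnJ, against 12.33, 12.47 and 12.72 in the lowest, median and highest other strain. Stard10, a lipid transfer protein, was 10.10 and 10.18 in the fluoxetine and water arrays of BTBR and 2.50 in both of I/LnJ, against 9.28, 10.02 and 10.44. Akr1a1, an aldehyde reductase, was 14.64 and 14.60 in the fluoxetine and water arrays of BTBR and 11.95 and 12.07 in those of I/LnJ, against 14.47, 14.59 and 14.66. Stard10 had 1 probe set. The other probe sets of Akr1a1 and Spock2 did not follow. For Akr1a1, 3 further probe sets differed by 0.01 to 0.05, and for Spock2 the second differed by -0.12, with I/LnJ at 7.17 and BTBR at 6.95 against 7.18 in the others. Of the called genes described above, 9130401M01Rik, Bnip5, Gm7008 and Mthfsd also had 1 probe set each. Further probe sets of Mad1l1, Mitf and Tmem132e were at or near the floor. Whether strain differences in sequence under the probes set any of these values was not tested.

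The remaining genes outside the range of the other strains did not pass limma's threshold, with adjusted p from 0.0879 upwards; they are named after their values were seen. Among those above the range were Pgd, an enzyme of the pentose phosphate pathway (10.85 and 10.86 in the fluoxetine and water arrays of BTBR and 10.94 and 10.61 in those of I/LnJ, against 10.35, 10.52 and 10.65 in the others; difference 0.28, adjusted p = 0.0879), and Syn3, a synapsin of synaptic vesicles (9.90 and 9.81 in the fluoxetine and water arrays of BTBR and 9.97 and 9.80 in those of I/LnJ, against 8.80, 9.58 and 9.81; difference 0.36, adjusted p = 0.804). The others included the BMP pseudoreceptor Bambi (0.26) and the Wnt inhibitor Apcdd1 (0.40). Bambi was 7.26 and 7.27 in the fluoxetine arrays of BTBR and I/LnJ, against 6.54, 6.78 and 6.95 in the others. In the water arrays of BTBR and I/LnJ, at 6.80 and 6.78, Bambi was near the median of the others. The Apcdd1 water arrays, at 11.81 in BTBR and 11.89 in I/LnJ, were also under the highest other strain mean of 11.92. Below the range were Anln, an actin-binding protein of dividing cells that myelinating oligodendrocytes also make (6.08 and 5.95 in the fluoxetine and water arrays of BTBR and 6.30 and 5.98 in those of I/LnJ, against 6.18, 6.92 and 8.12; difference -0.998, adjusted p = 0.404), and the chaperone genes Dnaja4 (-0.72) and Pfdn5 (-0.34). With strain as a replicate block, Dnaja4 and Pfdn5 passed (limma adjusted p = 0.00485 and 0.0067). All 51 also lay outside the range of the 15 other strains listed later, by construction of that smaller range, among 113 genes (0.946%) that did so there.

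Genes tied to these strains by known mutations were read next. Draxin, the midline repellent, was at 2.08 in all 4 acallosal arrays and between 2.07 and 2.10 in the others, the floor of the arrays, so no level was resolved in any strain. Itpr3, which carries the tufted coat mutation of BTBR, was 3.37 and 3.26 in the fluoxetine and water arrays of BTBR and 3.37 and 3.26 in those of I/LnJ, too low to be tested. Phka1, the muscle phosphorylase kinase subunit that is mutated in I/LnJ, was 7.71 and 7.90 in the fluoxetine and water arrays of BTBR and 5.04 and 5.09 in those of I/LnJ, against 7.24, 7.61 and 8.34 in the lowest, median and highest other strain. I/LnJ was the lowest of all strains and BTBR ranked 5. No probe set paired with the single name Disc1 was used here.

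No member of the guidance and callosal lists passed the test, and their medians lay close to that of all genes (0.04). The lists came from textbook knowledge. Among 22 tested genes of callosal projection neurons the median difference was 0.01, with 11 higher and 11 lower. Unc5c, a netrin receptor that mediates repulsion, had the smallest p of this list. It was 9.61 and 9.48 in the fluoxetine and water arrays of BTBR and 9.31 and 9.18 in those of I/LnJ, against 8.77, 9.01 and 9.25 in the others (difference 0.40, limma adjusted p = 0.166), with BTBR highest of all strains and I/LnJ at rank 3. Cux2, an upper-layer transcription factor, differed by 0.22 and Dkk3, a secreted Dickkopf family protein, by -0.28 (limma adjusted p = 0.778 and 0.416).

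The 25 guidance ligands had a median difference of 0.06, and 20 of them were higher, beside 65.0% of all genes. Sema4d, a membrane semaphorin, differed by 0.23 and Ntn1, netrin-1, by -0.22, with I/LnJ lowest of all strains and BTBR at rank 7. The 34 receptors and adhesion molecules had a median of 0.05, and 26 were higher, beside the same share of all genes. Ncam1, a neural cell adhesion molecule, was 11.95 and 11.88 in the fluoxetine and water arrays of BTBR and 12.24 and 11.89 in those of I/LnJ, against 11.49, 11.68 and 12.04 (difference 0.29, limma adjusted p = 0.416). Dcc, the attractive netrin receptor, was 8.89 and 8.93 in the fluoxetine and water arrays of BTBR and 9.27 and 9.41 in those of I/LnJ, a difference of 0.03, and the slit receptor Robo1 differed by 0.01. Both strains lay well inside the range of the others for both genes. For the 27 growth cone and axon cytoskeleton genes the median was 0.03. There the microtubule protein Map1b was 11.96 and 12.58 in the fluoxetine and water arrays of BTBR, the lowest strain of all, and 13.04 and 12.91 in those of I/LnJ, inside the range of the others (12.71, 13.11 and 13.41). Gap43, a growth cone protein, differed by -0.05. Of 18 genes that pattern the commissural midline, 13 were higher, a share near the 65.0% of all genes, with a median of 0.11, and Nfia, a transcription factor needed for the midline glia, differed by -0.17.

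Markers of deep-layer neurons that project below the cortex had a median difference of -0.06 over 15 genes, with the strains apart: 0.02 in BTBR and -0.15 in I/LnJ. Fezf2, the transcription factor that specifies these neurons, was 10.38 and 10.55 in the fluoxetine and water arrays of BTBR and 9.80 and 10.15 in those of I/LnJ, against 10.25, 10.65 and 10.96 (difference -0.42, limma adjusted p = 0.421). I/LnJ was the lowest strain and BTBR ranked 24. Within the later strains the list's median was 0.07.

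Oligodendrocyte markers were lower in most cases without passing the test. Of 14 tested markers 13 had negative differences and 11 were below the mean of the others in both strains, against 35.0% of all genes with a negative difference and 15.6% below in both strains. The median difference was -0.25 (-0.18 in BTBR, -0.31 in I/LnJ) and -0.28 within the later strains. Mobp, a protein of compact myelin, was 9.87 and 10.54 in the fluoxetine and water arrays of BTBR and 10.22 and 10.84 in those of I/LnJ, against 10.38, 11.67 and 12.37 in the lowest, median and highest other strain. BTBR was the lowest strain and I/LnJ ranked 28, a difference of -1.19 (limma adjusted p = 0.359). Mog, a protein of the outer myelin surface, differed by -0.73 and Ugt8a, which makes the myelin lipid galactocerebroside, by -0.64. Mbp, myelin basic protein, was 14.45 and 14.67 in the fluoxetine and water arrays of BTBR and 14.57 and 14.64 in those of I/LnJ, against 14.32, 14.78 and 15.01, a difference of -0.18. The mean log2 level of the list placed BTBR at rank 22 and I/LnJ at rank 29 of 30, between the lowest and highest other strain (9.65 in BTBR and 9.36 in I/LnJ, against 9.14 to 10.27). In bulk cortex, fewer cells of a type and less RNA per cell cannot be told apart, and how much white matter each dissected piece held was not given in the sources used here. The precursor markers had a median of 0.00 over 10 genes.

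Microglial markers had a median difference of -0.28 over 12 genes, of which 9 were lower, beside 35.0% of all genes. Of the 12, 8 were below the mean of the others in both strains and 2 above it, against 15.6% and 36.7% of all genes. Itgam, the integrin chain CD11b, was 4.97 and 5.34 in the fluoxetine and water arrays of BTBR and 5.12 and 5.20 in those of I/LnJ, against 4.65, 6.29 and 6.98 in the others (difference -1.07, limma adjusted p = 0.23), and the strains ranked 29 and 28. The chemokine receptor Cx3cr1 differed by -0.48, while Tmem119 (0.08) and Csf1r (-0.11) were close to the others. Astrocyte and endothelial markers had medians of -0.06 and 0.00. Pericyte and smooth muscle markers went opposite ways, with medians of 0.47 in BTBR and -0.21 in I/LnJ, and by mean level they ranked 1 and 30 of 30. Marker genes of the meninges (10 tested, medians 0.44 in BTBR and -0.25 in I/LnJ) and of the choroid plexus (2 tested, 0.87 in BTBR and -0.68 in I/LnJ) were split the same way, and their part in the pericyte values was not tested. Immediate early genes, which follow neuronal activity, were split the other way, at -0.32 in BTBR and 0.49 in I/LnJ. By mean level BTBR ranked 26 and I/LnJ 2, but in the water arrays alone 17 and 8.

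Markers of GABA interneurons were higher in most cases, again without passing the test. Of 14 tested, 13 had positive differences and 9 were above the mean of the others in both strains, against 36.7% of all genes above in both, with a median of 0.21 (0.14 in BTBR, 0.24 in I/LnJ). The mean log2 level placed BTBR at rank 3 and I/LnJ at rank 1 of 30, but in the water arrays alone BTBR at rank 2 and I/LnJ at rank 9, and the median there was 0.12, against 0.24 in the fluoxetine arrays alone. Slc32a1, the vesicular GABA transporter, was 10.49 and 10.71 in the fluoxetine and water arrays of BTBR and 10.72 and 10.49 in those of I/LnJ, against 9.96, 10.35 and 10.63 (difference 0.24, limma adjusted p = 0.83), and Gad2, a GABA-synthesizing enzyme, differed by 0.21. Htr3a, a serotonin receptor channel that marks a class of interneurons, was 4.66 and 4.77 in the fluoxetine and water arrays of BTBR and 4.49 and 3.69 in those of I/LnJ, against 2.99, 3.33 and 4.60 (difference 0.93, limma adjusted p = 0.268). Calb2, calretinin, rested on 1 array: the fluoxetine array of I/LnJ was at 10.79 and its water array at 7.70, against 8.19 and 8.11 in the fluoxetine and water arrays of BTBR. The same I/LnJ array was also the highest of the 4 for the neuroblast genes Dlx1 (9.72) and Dcx (9.49) and for Doc2g, a gene of olfactory bulb neurons (6.32, against 4.58 in the water array). Olfactory bulb and neuroblast markers had a median of 0.32 over 5 tested genes (0.16 in the water and 0.52 in the fluoxetine arrays alone), and their part in the interneuron values was not tested. The interneuron median was 0.13 within the later strains and 0.07 when all probe sets of a gene were averaged.

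**Figure D4:**
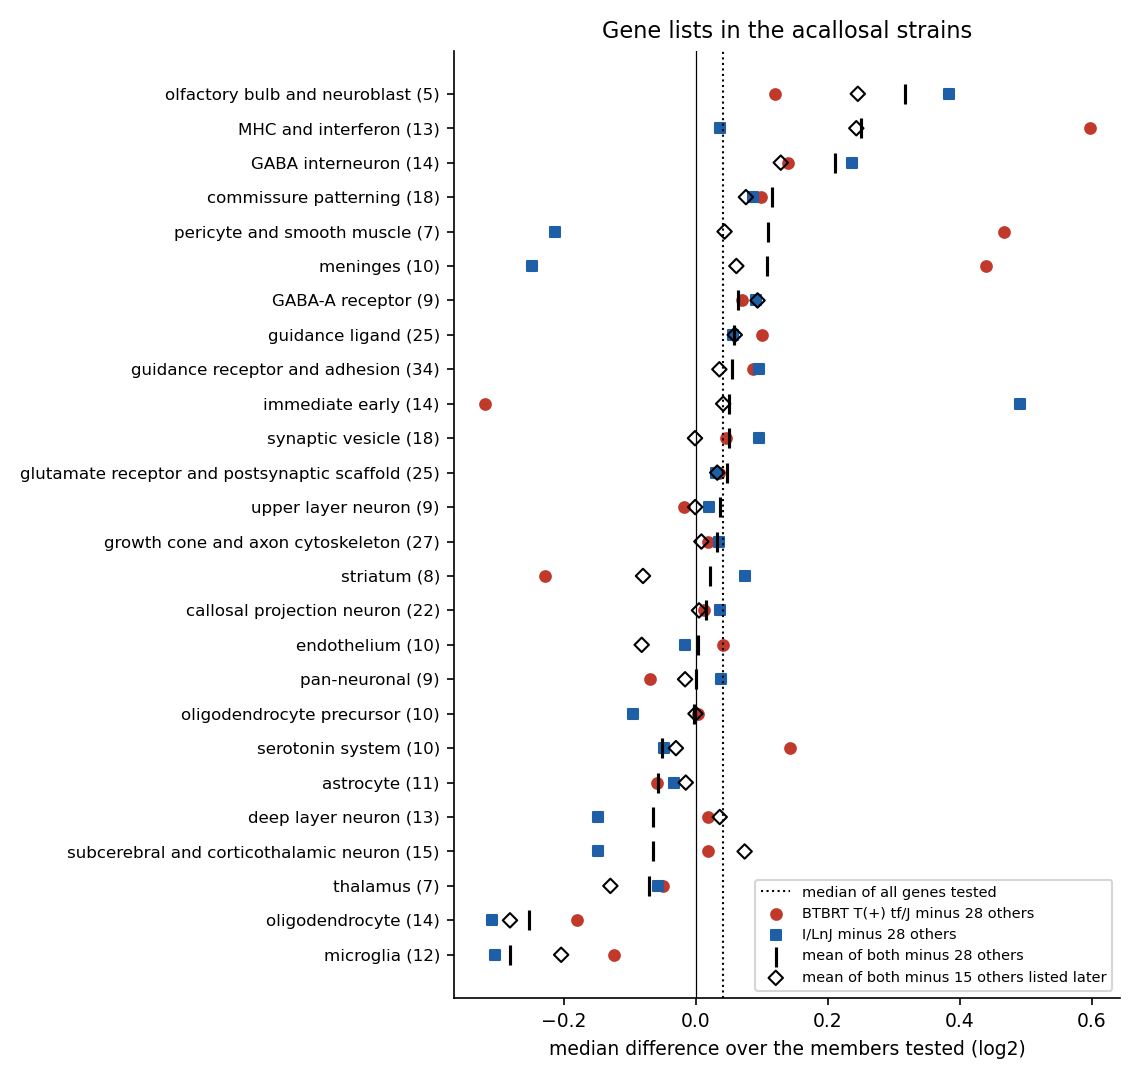
Median log2 difference from the other strains for each gene list with at least 5 tested members (number in brackets). Circles are BTBRT T(+) tf/J, squares I/LnJ, ticks both strains and diamonds both strains against the 15 others listed later; the dotted line is the median of all genes, 0.04. Oligodendrocyte (-0.25) and microglia (-0.28) markers lie lowest, and pericyte markers and immediate early genes are split between the strains.

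The response to fluoxetine, taken as the fluoxetine minus the water array of each strain, differed between the acallosal and other strains for 5 genes (0.0418%), 2 with a larger response (0.0167%) and 3 with a more negative one (0.0251%), each at a limma adjusted p of 0.0326. Without adjustment, 791 genes (6.62%) had a p under 0.05. Oxtr, the oxytocin receptor, was 5.91 with fluoxetine and 4.46 with water in BTBR and 4.87 with fluoxetine and 3.80 with water in I/LnJ. Its response was therefore 1.45 in BTBR and 1.07 in I/LnJ, against -0.74, 0.00 and 0.83 in the lowest, median and highest other strain (difference 1.24, SE 0.24). Both responses lay above that of every other strain, although the water values lie near or under the level of 4 used for testing. A second Oxtr probe set was at the floor in every strain.

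Ptpn14, a tyrosine phosphatase, was 6.32 with fluoxetine and 5.79 with water in BTBR and 6.18 with fluoxetine and 5.79 with water in I/LnJ. The responses of 0.54 in BTBR and 0.40 in I/LnJ lay above the others' highest of 0.11 (difference 0.49, SE 0.0918). The acallosal water arrays held the same value. Many other strains had a response of exactly 0, which narrows the spread behind this SE. Further Ptpn14 probe sets, at 2.07 and 2.82 in both acallosal strains, had a response of 0 in each. The cell cycle inhibitor Cdkn2d was 10.75 with fluoxetine and 11.10 with water in BTBR and 10.77 with fluoxetine and 11.13 with water in I/LnJ, and the responses of -0.36 in each strain lay below the lowest other strain at -0.19 (difference -0.37, SE 0.0696). Ipw, a noncoding transcript of the imprinted Prader-Willi region, was 7.83 with fluoxetine and 8.49 with water in BTBR and 7.73 with fluoxetine and 8.73 with water in I/LnJ. Its responses of -0.67 in BTBR and -0.997 in I/LnJ were below the lowest other strain at -0.47 (difference -0.75, SE 0.143). Ufm1, a ubiquitin-like modifier, was 9.09 with fluoxetine and 9.40 with water in BTBR and 8.90 with fluoxetine and 9.35 with water in I/LnJ (responses -0.32 in BTBR and -0.45 in I/LnJ, lowest other strain -0.20, difference -0.41, SE 0.0749). Of 4 further Ufm1 probe sets, none had responses as large in both strains. With order of deposit as a covariate, Ufm1 and Ptpn14 still passed (limma adjusted p = 0.0176 each), and within the later strains 0 genes did.

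**Figure D5:**
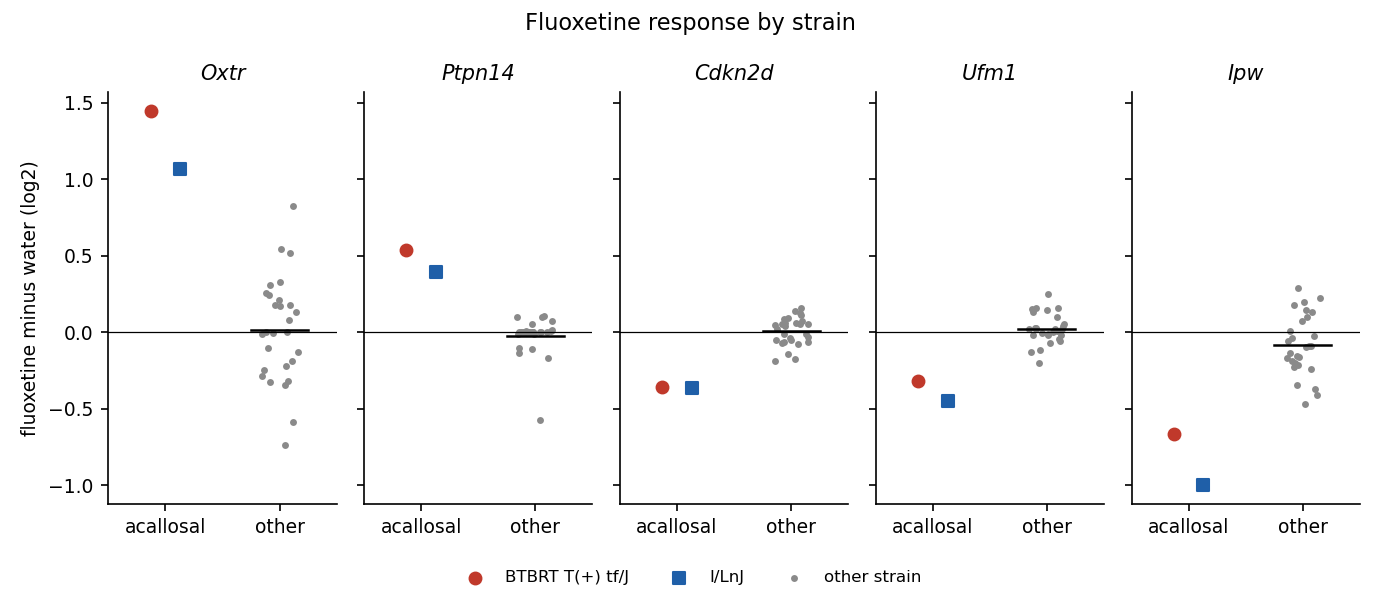
Fluoxetine minus water (log2) for the 5 genes whose response differed. In each panel the acallosal strains are on the left (circle BTBRT T(+) tf/J, square I/LnJ) and the 28 other strains on the right, with a bar at their mean. Both acallosal strains lie outside the range of the others in all 5 panels.

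Outside the named genes, 4201 probe sets with no or several gene names passed the same filter and were fitted separately. Of these, 9 (0.214%) differed with both strains on the same side, and 31 (0.738%) had both strains outside the range of the others, 8 above and 23 below. Probe set 1442680_at had the smallest p. It was 2.77 and 3.997 in the fluoxetine and water arrays of BTBR and 3.67 and 2.77 in those of I/LnJ, against 6.87, 8.19 and 8.45 in the lowest, median and highest other strain. All 4 acallosal arrays were below every other strain mean (limma adjusted p = 3.99e-12). They were also under the level of 4 used for testing, so the probe set passed the filter only through the other strains, and the size of the difference was not resolved. Probe set 1459702_at was 4.94 and 5.39 in the fluoxetine and water arrays of BTBR and 5.14 and 5.03 in those of I/LnJ, against 5.52, 5.81 and 6.19 in the others (difference -0.70, SE 0.111, limma adjusted p = 0.00139). It passed within the later strains too (limma adjusted p = 0.0215). The annotation used here pairs neither of them with a gene.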

How the data were processed

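Per the submitters' processing notes, GCRMA of unstated version made the values, and the authors deposited them as linear intensities of 45101 probe sets. This method corrects background by probe sequence and normalizes between arrays, and it compresses values near the floor (2.07 in log2). The intensities were transformed to log2 without a pseudocount. No count or depth exists for arrays, and their number limits the precision. Control probe sets were left out of the tests. A gene was its probe set with the highest mean among those with 1 gene name, and it was tested if log2 was at least 4 in at least 4 arrays. Limma 3.58.1 in R 4.3.3 (lmFit, eBayes, two-sided, Benjamini-Hochberg over all genes tested) compared 2 with 28 strain means, and for fluoxetine the within-strain differences. The script was tested on simulated data. The strains, lists and tests were chosen with earlier results of these data known. Genes named were those past the threshold and outside the range of the others, a fixed set (Draxin, Disc1, Itpr3, Phka1, Dcc, Robo1, Gap43, Nfia, Mbp and others not reported here) and those with a differing response; other genes were named after their values were seen. Lists were described by counts and medians without a test. Both arrays of a strain share its label: their deviations from the mean of all 60 arrays correlated at 0.76 in BTBR and 0.63 in I/LnJ, in each case more than with any other strain. Chromosomes and gene neighbours came from the RefSeq mouse table. Nothing used here gives hybridisation batches or scan dates. The 3' minus 5' difference of the Actb control probe sets, a measure of RNA quality, was 1.43 in BTBR and 1.49 in I/LnJ. The lowest, median and highest other strain were at 1.21, 1.37 and 1.48, so I/LnJ lay just above all others. For Gapdh it was -0.11 in BTBR and -0.14 in I/LnJ, inside the range of the others (-0.27 to -0.08). The part of RNA quality in the differences was not tested.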

Additional observations from a re-analysis of the deposited data

Results flagged for a closer look

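The fluoxetine response of 5 genes differed between the acallosal and the other strains by limma's test of the difference itself, with an adjusted p of 0.0326 each. The differences in response were 1.24 for Oxtr, 0.49 for Ptpn14, -0.37 for Cdkn2d, -0.75 for Ipw and -0.41 for Ufm1, all on the log2 scale. Both strains showed the direction in each case. Each response rests on 1 fluoxetine and 1 water array per strain. For I/LnJ this is the same fluoxetine array that stood apart from its water array for Calb2. What that array adds to the I/LnJ responses was not tested. In BTBR alone 4 genes differed in response and in I/LnJ alone 57, and the 2 fits shared 0 and 2 genes with the 5. Probe set 1459271_at, which has no gene name here and belongs to no comparison of named genes, had both acallosal strain means above every other. It was 4.81 and 4.32 in the fluoxetine and water arrays of BTBR and 4.89 and 5.03 in those of I/LnJ, against 4.04, 4.32 and 4.48 in the lowest, median and highest other strain (difference 0.47, limma adjusted p = 0.0137). The BTBR water array was level with the median of the others, so the BTBR rise rested on its fluoxetine array. With order of deposit as a covariate the limma adjusted p was 0.0295, and within the later strains it was 0.0985. These intensities lie near the level of 4 used for testing.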

How the results depend on the processing

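None of the 9 called genes or 5 called responses changed direction in the settings where they were recomputed. Against 9 genes differing between acallosal and other strains, the fit of all 60 arrays with strain as a replicate block, which uses that both arrays of a strain are paired, gave 15 (5 higher and 10 lower, 7 of them shared). Water arrays alone gave 6 (1 higher and 5 lower, 2 shared), fluoxetine arrays alone 27 (22 higher and 5 lower, 6 shared), no filter on low values 51, a filter at log2 of 6 gave 5, and leaving out 129S1/SvImJ and LP/J, known relatives of BTBR, gave 22. A robust estimate of the spread with a trend gave 4, order of deposit as a covariate 2, and the later strains alone 0. Leaving out 1 acallosal strain gave 52 to 59 genes. Against 51 genes outside the range of the others, water arrays alone gave 31, fluoxetine arrays alone 79, the later strains 113, and 1 acallosal strain alone 690 to 1195. Against 5 differing responses, no filter gave 173, averaged probe sets 11, order of deposit as a covariate 3 and the later strains 0. Leaving out 1 acallosal strain gave 4 to 57. The cause of these changes was not tested, apart from the looser range that 1 strain or 15 strains allow by construction. Quantile normalization left the median of all genes at 0.03. Of the 231 list medians recomputed, 11 moved by more than the spread between strains. With 2 acallosal strains and 1 array per strain and treatment, strain and pool cannot be told apart, and probe sets near the floor resolve no level.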
